A study of Homo sapiens with 12 samples.

Results

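The 48 lysosomal genes described here encode lysosomal hydrolases, membrane proteins, proton pump subunits and the proteins that carry or activate the hydrolases. They were taken from a fixed list of gene symbols and matched to the Ensembl identifiers of a count table of 78930 genes. All 48 were matched, and 46 had enough counts to be tested. The legumain gene LGMN, with 9 counts in all 12 libraries and at most 2 in any of them, and ACP5, with 37 counts and at most 8 in a library, fell below the filter on low counts and received no test.

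Lysosomes are acidic, membrane-bound compartments that break down proteins, glycans, lipids and nucleic acids delivered by endocytosis, phagocytosis and autophagy. A proton pump, the V-ATPase, acidifies the lumen, in which the cathepsins, glycosidases, sulfatases and lipid hydrolases work, and most soluble hydrolases reach it through mannose 6-phosphate receptors or sortilin. Transcription factors of the MiT/TFE family, TFEB, TFE3, MITF and TFEC, bind a palindromic E-box in the promoters of many lysosomal genes, and monocytes and macrophages are known for a large lysosomal compartment.

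The treatment protocol names OCI-AML3 cells, an established line of human acute myeloid leukaemia cells that carries the NPM1c mutation, which moves the nucleolar protein nucleophosmin largely into the cytoplasm. The cell line field of the labels instead carries a running number, a different one for each library from OCI-AML3 to OCI-AML14; all libraries were taken as OCI-AML3, which is an assumption. All 4 groups carried NPM1c fused to a degron, a tag through which the small molecule dTAG-13 directs a protein to destruction. Cells were spun with virus in polybrene, treated 48 h later with 500 nM dTAG-13 or with its solvent DMSO, and sorted for mCherry 24 h after that. RNA was poly(A)-selected and sequenced as stranded libraries with 30519165 to 59925564 counts each.

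The groups held 3 libraries each. The NTC DMSO cells carried the degron, and their titles name DMSO as the treatment although their treatment label reads dTAG; no construct is given for them, and the labels do not say what NTC stands for. The dTAG mCherry cells received dTAG-13 and an mCherry vector, the dTAG FL-NPM1c cells dTAG-13 and full-length NPM1c joined to mCherry, and the dTAG C-body null cells dTAG-13 and a form labelled C-body null joined to mCherry, whose changes the labels do not describe. A difference between NTC DMSO and the other groups therefore cannot be told apart from one in the vector or the sort. Replicates carry numbers, but whether the cultures were separate is not stated in the labels. The p-values therefore reflect only the spread among these libraries, which may be technical.

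NPM1 was the targeted gene, and the degron acts on the protein, so its RNA does not test the loss. NPM1 stood at 1430 ± 117 CPM (counts scaled to library size; mean ± SD, n = 3 here and below) in NTC DMSO, 1250 ± 171 CPM in dTAG mCherry, 1650 ± 38.9 CPM in dTAG FL-NPM1c and 1920 ± 21.7 CPM in dTAG C-body null. It was higher in both groups with an NPM1 construct than in dTAG mCherry, by 0.40 ± 0.09 (log2, ± SE; edgeR adjusted p = 0.0073) for FL-NPM1c and 0.62 ± 0.09 (edgeR adjusted p = 0.0029) for C-body null. The table does not separate construct from endogenous reads. A pair of libraries went together. In 22 tested members dTAG mCherry replicate 2 was the highest of its group, and in 22 of these 22 NTC DMSO replicate 3 was the highest of its own. In 17 members the first was lowest, and of these the second was lowest in 13 and highest in 3. Over all tested genes the correlation of their deviations from the group means was 0.4, so the link is not particular to lysosomal genes. In dTAG mCherry, replicate 3, the shallowest library, was highest in 18 of 46 members and lowest in 22. Several counts that changed without the pair are given below, some only in the closing section on processing. Mitochondrial transcripts made up 7.32 to 9.63% of counts in dTAG mCherry and 6.83 to 7.63% elsewhere, and the part of this difference in the results was not tested.

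Lysosomal gene expression was higher after dTAG-13 in the mCherry cells than in the NTC DMSO cells. Of the 46 tested members, 27 rose and 1 fell (edgeR quasi-likelihood test, Benjamini-Hochberg adjusted p under 0.05 over 24064 genes), against 12.9% of all genes tested that were called higher and 9.69% called lower. The median log2 fold change of the members was 0.35, with a range of -0.31 to 1.32, and that of all genes was -0.002. Lysosomal genes are mostly well expressed, so the same count was made among genes with an average of at least 10 CPM: 23 of 40 members (57.5%) were called higher there, against 10.8% of all such genes, and 1 (2.5%) was called lower, against 15.4%. The 48 members together took up 0.387 to 0.402% of counts in NTC DMSO and 0.465 to 0.525% in the other 3 groups, with no overlap.

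**Figure D1:**
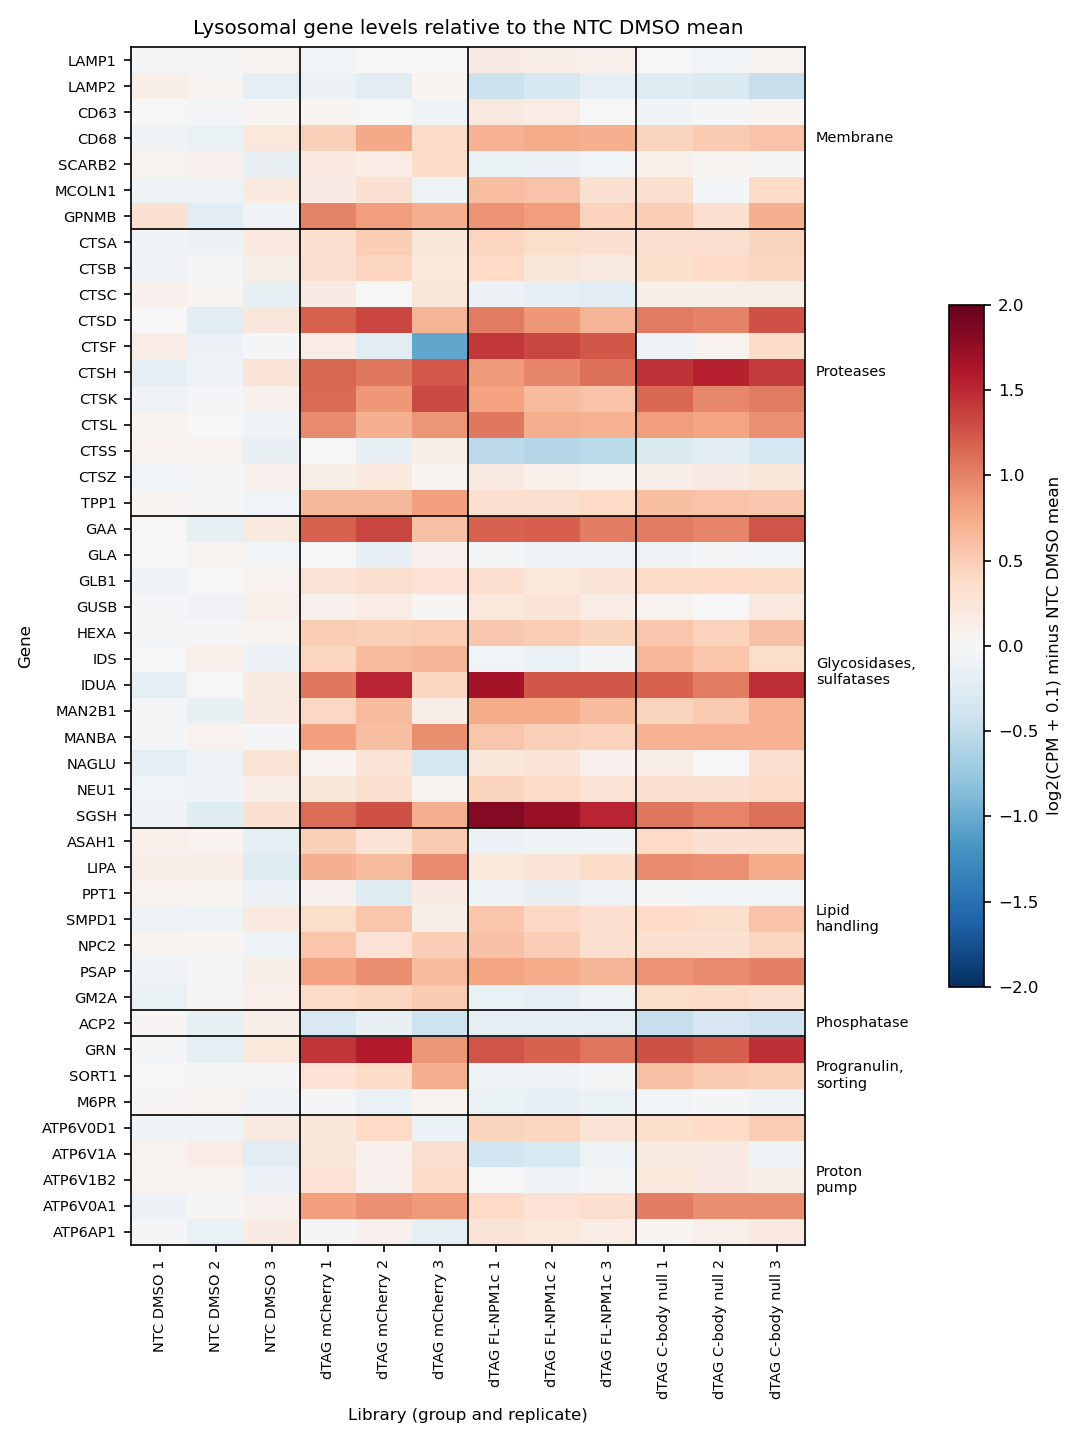
Levels of the 46 tested lysosomal genes (rows, ordered by role) in the 12 libraries (columns), as log2(CPM + 0.1) minus the mean of the 3 NTC DMSO libraries; red is higher and blue lower. The median over members lies between -0.03 and 0.08 in the NTC DMSO libraries and between 0.28 and 0.41 in the other 9, with IDS, GM2A, SORT1 and ASAH1 near 0 in dTAG FL-NPM1c.

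The rise was uneven across roles. It took in 6 of 7 lipid hydrolases, activators and lipid carriers, 8 of 12 glycosidases and sulfatases, 7 of 11 tested proteases, 2 of the 3 genes for progranulin and the sorting receptors, 2 of 5 proton pump subunits and 2 of 7 membrane proteins. The most familiar lysosomal markers were among those not called: LAMP1 differed by -0.02 ± 0.07, LAMP2 by -0.10 ± 0.10 and CD63 by -0.02 ± 0.07 (log2, ± SE), with edgeR adjusted p of 0.86, 0.51 and 0.89. PPT1, GLA, CTSS and the mannose 6-phosphate receptor gene M6PR had values between -0.03 and 0.01 and were not called either. Whether the roles differ from one another was not tested.

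With full-length NPM1c, 14 members were lower and 2 higher than with mCherry (edgeR adjusted p under 0.05), where 7.95% of all genes were called lower and 7.58% higher. The median over the 46 members was -0.05, and that of all genes was -0.002. Among genes of at least 10 CPM, 13 of 40 members (32.5%) were lower and 1 (2.5%) higher, against 11% and 9.22% of all such genes. The C-body null form gave 0 calls in either direction against mCherry, where 0.216% of all genes were called higher and 0.378% lower. Of all genes of at least 10 CPM, 0.292% were called higher and 0.502% lower in it. At an unadjusted p under 0.05 the edgeR fit had 1 member higher and 3 lower of 46, beside 11.93% of all genes in either direction. DESeq2 called 0 members in either direction, and the members' values ranged from -0.40 to 0.45 around a median of 0.01. Without dTAG mCherry replicate 2 and NTC DMSO replicate 3, this comparison had 3 members called higher and 6 lower, and 7.48% of all genes were then called higher and 8.68% lower. The whole-table share in this comparison rests largely on dTAG mCherry replicate 2: without that library alone 3.1% of genes were called higher and 2.6% lower, with 0 members higher and 1 lower.

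When the 2 constructs were compared directly, 8 members were lower and 2 higher with FL-NPM1c than with C-body null (edgeR adjusted p under 0.05), against 4.86% and 4.82% of all genes. Among genes of at least 10 CPM these were 7 (17.5%) and 1 (2.5%) of 40 members, against 6.29% and 4.13% of all such genes. The comparison of the constructs and that of mCherry with NTC DMSO have no library in common. Of the 8 members lower with FL-NPM1c, 7 (87.5%) were among the 27 that rose in the mCherry cells, of which they make up 25.9%: ASAH1, ATP6V0A1, CTSH, GM2A, IDS, LIPA and SORT1. The remaining one was CTSC, and SGSH was higher in both comparisons. Of all 46 tested members 58.7% rose in the mCherry cells, and the same overlap was not counted over all genes. Both comparisons came from 1 fit with a shared estimate of spread.

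**Figure D2:**
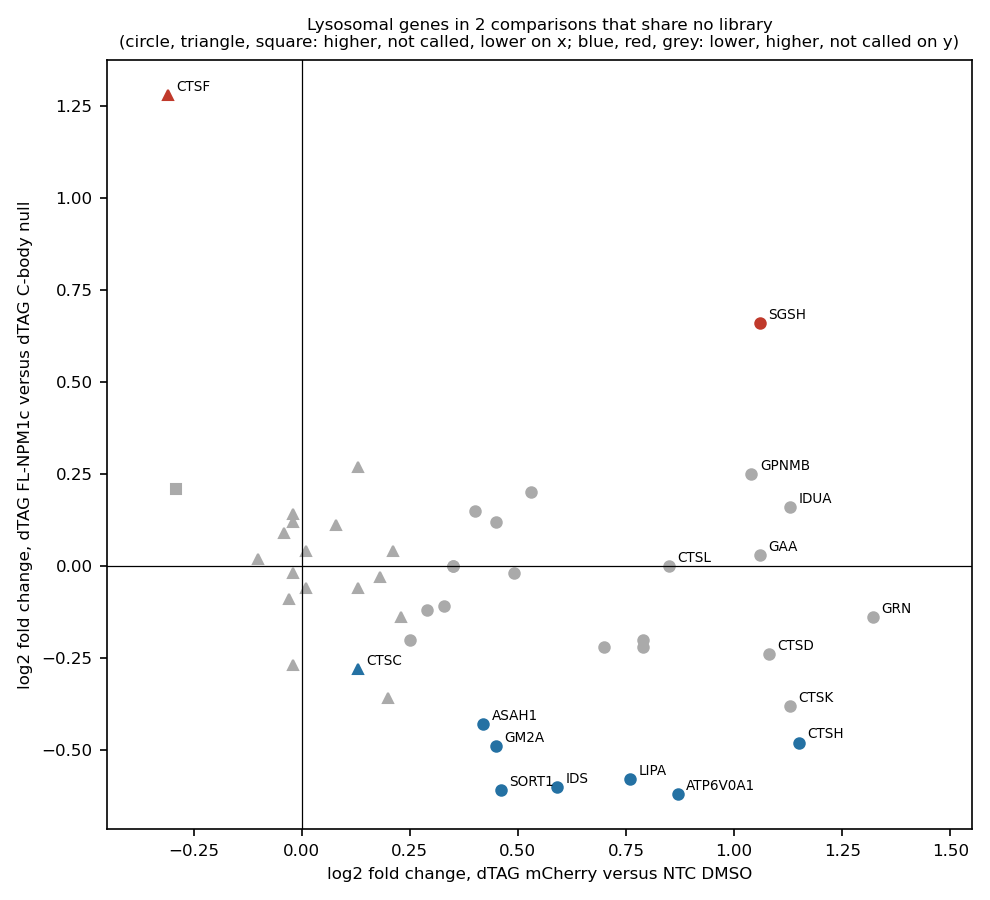
Log2 fold change of each tested lysosomal gene in dTAG mCherry versus NTC DMSO (x axis) and in dTAG FL-NPM1c versus dTAG C-body null (y axis), 2 comparisons with no library in common; colours and shapes show the calls. IDS, LIPA, SORT1, GM2A, ASAH1, ATP6V0A1 and CTSH lie at the lower right, GRN, CTSL and GAA lie to the right near 0 on the y axis, and CTSF lies alone at the upper left.

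Against NTC DMSO, 25 members were higher and 2 lower (LAMP2 and CTSS) with FL-NPM1c, and 27 higher and 3 lower (LAMP2, CTSS and ACP2) with C-body null (edgeR adjusted p under 0.05). The shares over all genes were 14.6% higher and 13.3% lower for the first and 14.1% and 12.4% for the second. Among genes of at least 10 CPM, 19 of 40 members were higher and 2 lower for the first, against 12% and 22.9%. For the second they were 24 and 3, against 12.7% and 18.7%. These comparisons share the NTC DMSO libraries with the mCherry comparison, so their counts are not separate evidence.

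Among the members are genes whose promoters hold the E-box that MiT/TFE factors bind, and their sequences are shown because genes with the same motif differed in their calls. RefSeq windows (GRCh38.p14) from 250 bases before to 50 bases after the transcription start were at hand for 35 of the 48 members, in 52 windows, and were searched on both strands for CACGTG and for its nested longer forms TCACGTG, TCACGTGA and TCACGTGA with G before and C after it. The core CACGTG was in 21.2% of the members' windows and in 7.23% of all 34943 windows, TCACGTG in 17.3% against 3.69%, TCACGTGA in 9.6% against 0.98% and the longest form in 3.8% against 0.35%. The stretches below are given 5′ to 3′ on the gene's strand with the longest matching form in capitals (CACGTGA is TCACGTG on the other strand); the 5 genes with the 8-base palindrome come first, then CTSD and CTSF, the promoters of a gene that rose in the mCherry cells and of the member with the largest fold of FL-NPM1c over mCherry. GAA (plus strand) is at chr17:80101485-80101575, MCOLN1 (plus) at chr19:7522563-7522623, CTSA (plus) at chr20:45891290-45891318, ATP6V0D1 (minus) at chr16:67481199-67481228, LAMP1 (plus) at chr13:113297027-113297236, CTSD (minus) at chr11:1763957-1763986 and CTSF (minus) at chr11:66568634-66568747.
GAA: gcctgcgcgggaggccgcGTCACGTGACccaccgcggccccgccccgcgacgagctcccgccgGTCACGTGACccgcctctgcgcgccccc
MCOLN1: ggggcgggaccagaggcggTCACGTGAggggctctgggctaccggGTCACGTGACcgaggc
CTSA: tgTCACGTGgcgccggagtTCACGTGAct
ATP6V0D1: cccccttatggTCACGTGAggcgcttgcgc
LAMP1: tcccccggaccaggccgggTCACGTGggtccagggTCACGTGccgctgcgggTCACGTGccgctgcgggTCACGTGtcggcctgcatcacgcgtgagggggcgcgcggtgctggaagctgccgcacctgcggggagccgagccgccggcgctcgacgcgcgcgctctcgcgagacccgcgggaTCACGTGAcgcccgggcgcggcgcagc
CTSD: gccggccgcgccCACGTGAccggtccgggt
CTSF: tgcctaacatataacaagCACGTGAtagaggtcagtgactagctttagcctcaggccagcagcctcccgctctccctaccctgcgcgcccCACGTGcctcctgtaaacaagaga

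The genes with the 8-base palindrome did not move as a block in the mCherry cells, where 2 of 5 rose, beside 17 of 29 tested members without it. With FL-NPM1c versus NTC DMSO, 4 of 5 were called higher, beside 15 of 29. With C-body null versus NTC DMSO the counts were 3 of 5 and 17 of 29. In the mCherry cells GAA rose by 1.06 ± 0.15 (log2, ± SE, edgeR adjusted p = 6.8e-05) and CTSA by 0.35 ± 0.09 (edgeR adjusted p = 0.011). ATP6V0D1 at 0.18, MCOLN1 at 0.13 and LAMP1 at -0.02 were not called. ATP6V0D1 and MCOLN1 lay below the NTC DMSO mean in dTAG mCherry replicate 3 (-0.126 and -0.102) but above it in replicates 1 and 2. Of the 7 printed stretches, that of LAMP1 held the most copies of the core CACGTG (5), but not of the 8-base palindrome. Over all members with a window, 3 of the 10 tested genes with CACGTG rose (median 0.16) and 16 of the 24 without it (median 0.45). With FL-NPM1c versus NTC DMSO the order was the reverse, with 7 of 10 higher (median 0.38) and 12 of 24 (0.27). With C-body null versus NTC DMSO, 5 of 10 were higher (median 0.28) and 15 of 24 (0.48). Over all genes, 12.9%, 14.6% and 14.1% were higher in these 3 comparisons. In FL-NPM1c versus mCherry, 0 of the 10 genes with CACGTG were called lower and 8 of the 24 without it, and in FL-NPM1c versus C-body null the counts were 0 of 10 and 7 of 24. The shares of all genes called lower were 7.95% and 4.86%, so 0 of 10 is near them and says little about genes with the motif. These are descriptions with no test: a match says only that the letters occur in the window, and its absence says nothing about binding elsewhere.

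Among lysosomal membrane proteins, CD68 and GPNMB rose in the mCherry cells and SCARB2 fell with FL-NPM1c. CD68, a glycoprotein of the lysosomal membrane used as a macrophage marker, stood at 105, 100 and 128 CPM in the 3 NTC DMSO libraries (replicates 1 to 3, here and below), at 153, 186 and 142 CPM in dTAG mCherry, at 179, 184 and 181 CPM in dTAG FL-NPM1c and at 150, 159 and 165 CPM in dTAG C-body null. All 9 dTAG-13 libraries lay above all 3 NTC DMSO libraries, and the mCherry difference was 0.53 ± 0.10 on the log2 scale (edgeR adjusted p = 0.0012). In GENCODE 29, 81.73% of the exon bases of CD68 also belong to the transcript AC016876.2 on the same strand, so reads of these 2 may not be told apart. GPNMB, a transmembrane glycoprotein of lysosomes and melanosomes, was low everywhere, at 0.372, 0.225 and 0.264 CPM in NTC DMSO, 0.663, 0.579 and 0.535 CPM in dTAG mCherry, 0.61, 0.583 and 0.427 CPM in dTAG FL-NPM1c and 0.44, 0.38 and 0.524 CPM in dTAG C-body null. Its mCherry rise of 1.04 ± 0.29 (edgeR adjusted p = 0.016) was lost when NTC DMSO replicate 2 (adjusted p = 0.075), NTC DMSO replicate 3 (0.051) or dTAG mCherry replicate 1 (0.062) was left out. SCARB2, the receptor that carries glucocerebrosidase to lysosomes, stood at 92.6, 93.6 and 79.1 CPM in NTC DMSO and 100, 97.5 and 114 CPM in dTAG mCherry. SCARB2 was at 80.7, 80.9 and 85.4 CPM in dTAG FL-NPM1c and 94.4, 91.1 and 86.8 CPM in dTAG C-body null. Each FL-NPM1c library was below every mCherry library, with a difference of -0.34 ± 0.08 (edgeR adjusted p = 0.015), and the call was lost without dTAG FL-NPM1c replicate 1 (adjusted p = 0.055) or 2 (0.067) or dTAG mCherry replicate 3 (0.07).

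Of the 11 tested proteases, CTSH, CTSK, CTSD, CTSL, TPP1, CTSA and CTSB rose in the mCherry cells. CTSD, the main aspartic protease of lysosomes, stood at 97.7, 85.2 and 115 CPM in NTC DMSO and 223, 250 and 157 CPM in dTAG mCherry. CTSD was at 203, 180.0 and 158 CPM in dTAG FL-NPM1c and 202, 197 and 238 CPM in dTAG C-body null. Every dTAG-13 library was above every NTC DMSO library, and the 3 dTAG-13 groups overlapped one another. The mCherry difference was 1.08 ± 0.15 (log2, ± SE; edgeR adjusted p = 5.1e-05), and FL-NPM1c differed from mCherry by -0.22 ± 0.15 (edgeR adjusted p = 0.31). CTSD shares 41.71% of its annotated exon bases with AC068580.4. CTSH, a cysteine protease with aminopeptidase activity, rose from 3.57, 3.83 and 4.84 CPM in NTC DMSO to 9.09, 8.49 and 9.62 CPM in dTAG mCherry, and stood at 7.38, 8.09 and 8.74 CPM in dTAG FL-NPM1c and at 11.2, 11.9 and 10.8 CPM in dTAG C-body null. It was 1.15 ± 0.12 higher in mCherry than in NTC DMSO (edgeR adjusted p = 3.4e-06) and differed by -0.48 ± 0.11 between FL-NPM1c and C-body null, where the groups did not overlap (edgeR adjusted p = 0.011; 0.057 without dTAG FL-NPM1c replicate 1).

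CTSK and CTSS, cysteine proteases known from osteoclasts and from antigen-presenting cells, lie near each other on chromosome 1, and CTSK but not CTSS was called in the mCherry cells. The difference between the genes was not tested. CTSK (chr1:150796208-150808323, minus strand, GRCh38) stood at 3.92, 4.05 and 4.39 CPM in NTC DMSO and 9.15, 7.59 and 10.5 CPM in dTAG mCherry. CTSK was at 7.27, 6.41 and 6.14 CPM in dTAG FL-NPM1c and 9.26, 8.07 and 8.53 CPM in dTAG C-body null. CTSS (chr1:150730196-150765957, minus strand) stood at 115, 116 and 99.5 CPM in NTC DMSO and 109, 98 and 119 CPM in dTAG mCherry. CTSS was at 76.2, 73.9 and 75.4 CPM in dTAG FL-NPM1c and 90.2, 95.3 and 86.7 CPM in dTAG C-body null. The 3 FL-NPM1c libraries held the lowest CTSS values of the 12, while CTSK with FL-NPM1c lay between NTC DMSO and mCherry. In mCherry versus NTC DMSO, CTSK rose by 1.13 ± 0.13 (edgeR adjusted p = 6.7e-06) and CTSS differed by -0.02 ± 0.09 (edgeR adjusted p = 0.92). In FL-NPM1c versus mCherry CTSK fell by 0.45 ± 0.12 (edgeR adjusted p = 0.022) and CTSS fell by 0.53 ± 0.09 (edgeR adjusted p = 0.00066). The CTSK call did not hold without either of dTAG FL-NPM1c replicates 2 and 3 or of dTAG mCherry replicates 1 and 3 (adjusted p 0.053 to 0.11), nor with only the 2 groups in the fit (0.058).

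TPP1, a tripeptidyl peptidase, and CTSC, which activates the serine proteases of myeloid granules, were the other proteases lower with FL-NPM1c than with mCherry. TPP1 stood at 132, 131 and 123 CPM in NTC DMSO and 201, 202 and 227 CPM in dTAG mCherry. TPP1 was at 163, 161 and 169 CPM in dTAG FL-NPM1c and 196, 191 and 188 CPM in dTAG C-body null. FL-NPM1c thus lay between NTC DMSO and the other 2 groups without overlap, with differences of -0.35 ± 0.07 from mCherry and 0.35 ± 0.07 from NTC DMSO (edgeR adjusted p = 0.0036 and 0.0017). CTSC stood at 241, 234 and 205 CPM in NTC DMSO and 253, 225 and 267 CPM in dTAG mCherry. CTSC was at 209, 201 and 196 CPM in dTAG FL-NPM1c and 246, 244 and 245 CPM in dTAG C-body null. The FL-NPM1c level differed by -0.30 ± 0.08 from mCherry (edgeR adjusted p = 0.02) and by -0.28 ± 0.08 from C-body null (edgeR adjusted p = 0.036). The first call was lost without dTAG FL-NPM1c replicate 2 or 3 or dTAG mCherry replicate 1 or 3 (adjusted p 0.058 to 0.094), and the second without any 1 of the 6 libraries compared (0.062 to 0.13). The first was also lost with only the 2 groups in the fit (edgeR adjusted p = 0.052) and the second with the replicate block (0.067).

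CTSF, another cysteine cathepsin, was low in all groups and highest with FL-NPM1c. CTSF (ENSG00000174080, chr11:66563463-66568841, minus strand, GRCh38) stood at 0.893, 0.725 and 0.766 CPM in NTC DMSO and 0.884, 0.665 and 0.334 CPM in dTAG mCherry. CTSF was at 2.27, 2.15 and 2 CPM in dTAG FL-NPM1c and 0.742, 0.835 and 1.05 CPM in dTAG C-body null. The 3 FL-NPM1c libraries were above all other 9, and the remaining groups overlapped. CTSF was 1.73 ± 0.23 higher with FL-NPM1c than with mCherry (edgeR adjusted p = 0.00015), 1.28 ± 0.22 higher than with C-body null (0.0012) and 1.42 ± 0.22 higher than in NTC DMSO (0.00025). CTSA, CTSB and CTSL rose in the mCherry cells and their FL-NPM1c values differed from mCherry by between -0.05 and 0.02, while CTSZ, the protease gene with the highest level per kilobase of exon in NTC DMSO (147 CPM per kb), was called in none of the 6 comparisons.

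Glycosidases and sulfatases, which take apart glycogen, glycoproteins and glycosaminoglycans, held 8 members that rose in the mCherry cells, namely IDUA, GAA, SGSH, MANBA, IDS, HEXA, MAN2B1 and GLB1. GAA, the acid alpha-glucosidase that digests glycogen, stood at 44.6, 39.7 and 51.8 CPM in NTC DMSO and 102, 114 and 67.4 CPM in dTAG mCherry. GAA was at 102, 103 and 92.2 CPM in dTAG FL-NPM1c and 92.7, 89 and 108 CPM in dTAG C-body null. All 9 dTAG-13 libraries were above NTC DMSO, and FL-NPM1c differed from mCherry by 0.07 ± 0.15 (edgeR adjusted p = 0.79). IDUA, the iduronidase of heparan and dermatan sulfate breakdown, stood at 1.59, 1.8 and 2.06 CPM in NTC DMSO and 3.84, 5.38 and 2.47 CPM in dTAG mCherry. IDUA was at 5.97, 4.43 and 4.41 CPM in dTAG FL-NPM1c and 4.23, 3.77 and 5.2 CPM in dTAG C-body null. The mCherry rise was 1.13 ± 0.24 (edgeR adjusted p = 0.0022), and the mCherry and NTC DMSO libraries did not overlap.

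The sulfatases IDS and SGSH act in the same breakdown of heparan sulfate and had opposite differences between the constructs. IDS (ENSG00000010404, chrX:149476990-149521096, minus strand, GRCh38 as annotated in GENCODE 29) stood at 29.3, 31 and 26.8 CPM in NTC DMSO and 39, 45.2 and 46.7 CPM in dTAG mCherry. IDS was at 27.8, 26.5 and 28.6 CPM in dTAG FL-NPM1c and 45.8, 42.5 and 37.1 CPM in dTAG C-body null. SGSH (ENSG00000181523, chr17:80206716-80220923, minus strand) stood at 6.62, 5.88 and 8.59 CPM in NTC DMSO and 15.1, 16.9 and 11.6 CPM in dTAG mCherry. SGSH was at 25, 23.1 and 20.2 CPM in dTAG FL-NPM1c and 14.6, 13.7 and 15 CPM in dTAG C-body null. IDS with FL-NPM1c overlapped NTC DMSO and was below both other groups, whereas SGSH with FL-NPM1c was above all other libraries. Both rose in mCherry, IDS by 0.59 ± 0.10 (edgeR adjusted p = 0.00033) and SGSH by 1.06 ± 0.15 (6.3e-05). With FL-NPM1c rather than mCherry, IDS fell by 0.66 ± 0.10 (edgeR adjusted p = 0.00033) and SGSH rose by 0.64 ± 0.14 (0.0067), and relative to C-body null the differences were -0.60 ± 0.10 (0.00066) and 0.66 ± 0.14 (0.0058). IDS has a near copy, IDSP1, with 446 counts in all 12 libraries, and 16.46% of its exon bases are shared with AC244197.3 on the same strand.

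MANBA, the beta-mannosidase, stood at 20.6, 22.1 and 20.7 CPM in NTC DMSO and 37.6, 32.2 and 40.3 CPM in dTAG mCherry. MANBA was at 30.9, 29.6 and 29.1 CPM in dTAG FL-NPM1c and 34.2, 34.3 and 34.3 CPM in dTAG C-body null. It rose by 0.79 ± 0.09 in mCherry (edgeR adjusted p = 5.3e-06) and fell by 0.29 ± 0.09 with FL-NPM1c relative to mCherry (0.031), a call that was lost without any 1 of the libraries compared other than dTAG mCherry replicate 2 (0.061 to 0.15). It was also lost with no low-count filter (edgeR adjusted p = 0.064), only the 2 groups (0.089) and the replicate block (0.065). GLA, GUSB and NAGLU were called in none of the 6 comparisons; GUSB has several transcribed pseudogenes in the table and its level is uncertain for that reason.

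**Figure D3:**
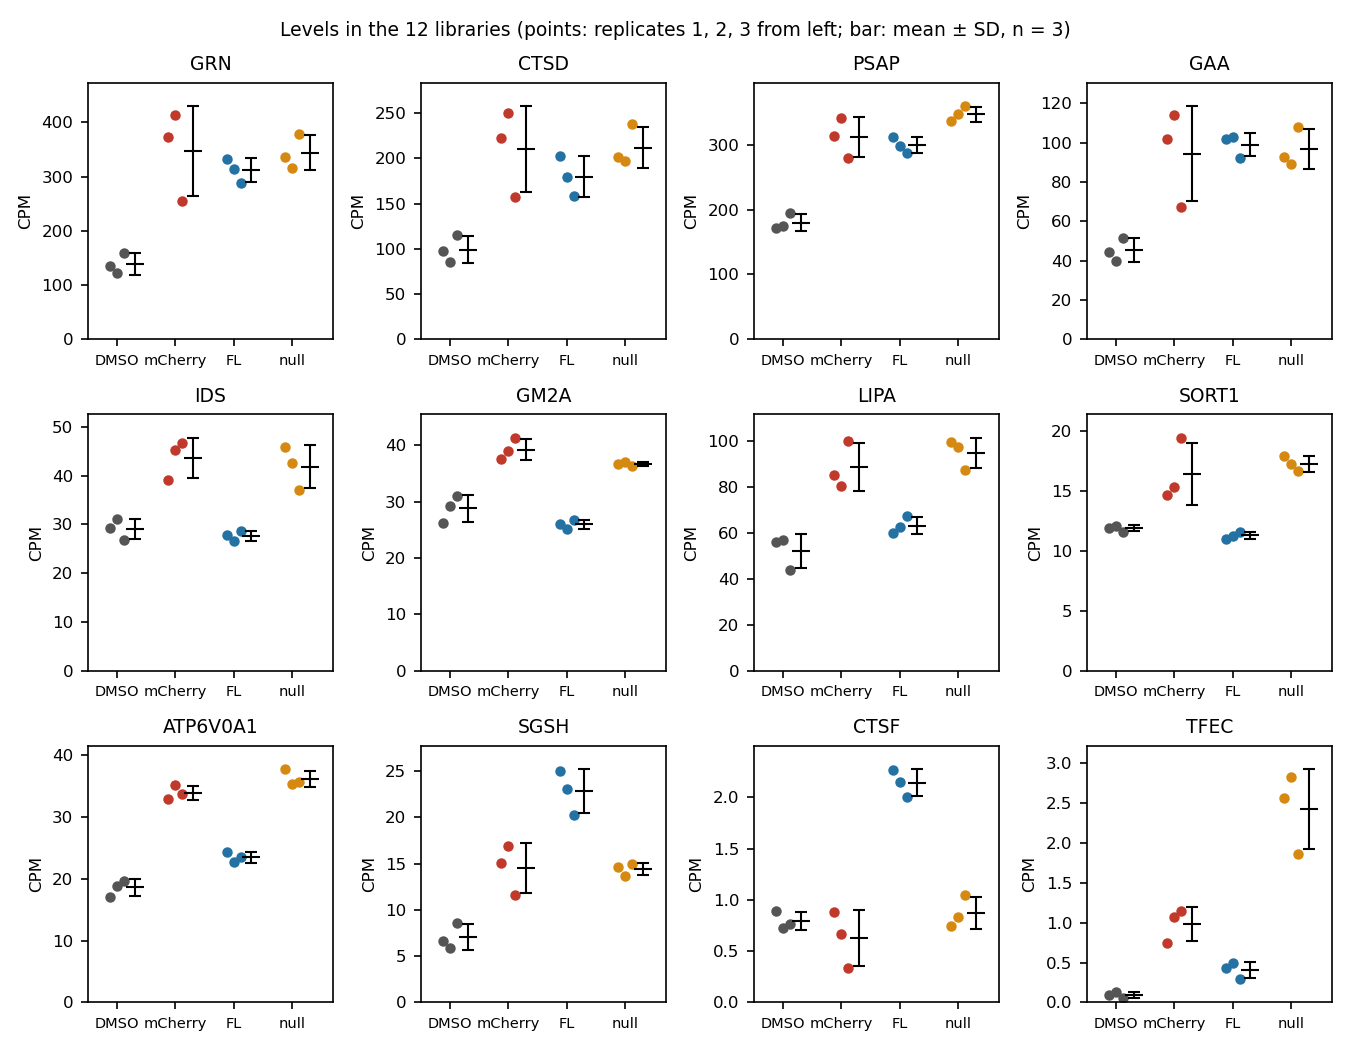
CPM of 11 lysosomal genes and of TFEC in each library; points are replicates 1 to 3 from left to right, bars are mean ± SD (n = 3), and each axis starts at 0. GRN, CTSD, PSAP and GAA are high in all 3 dTAG-13 groups; IDS, GM2A, LIPA, SORT1 and ATP6V0A1 are lower with FL-NPM1c than with mCherry or C-body null; SGSH and CTSF are highest with FL-NPM1c.

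Lipid hydrolases and their helpers made up the class with the highest share of members that rose in the mCherry cells, 6 of 7, and 3 of these, GM2A, ASAH1 and LIPA, had lower levels with FL-NPM1c than in either of the mCherry and C-body null groups. GM2A, the activator that presents ganglioside GM2 to beta-hexosaminidase, stood at 26.2, 29.2 and 31 CPM in NTC DMSO, 37.5, 38.9 and 41.3 CPM in dTAG mCherry, 26.1, 25.2 and 26.8 CPM in dTAG FL-NPM1c and 36.7, 37 and 36.3 CPM in dTAG C-body null. LIPA, the acid lipase that frees cholesterol and fatty acids from lipoproteins, stood at 56, 56.8 and 43.8 CPM in NTC DMSO, 84.9, 80.4 and 100 CPM in dTAG mCherry, 59.8, 62.4 and 67.2 CPM in dTAG FL-NPM1c and 99.4, 97.3 and 87.1 CPM in dTAG C-body null. ASAH1, the acid ceramidase, stood at 86.9, 85.5 and 71.3 CPM in NTC DMSO, 112, 98.2 and 117 CPM in dTAG mCherry, 75, 76 and 76.9 CPM in dTAG FL-NPM1c and 106, 99.8 and 101 CPM in dTAG C-body null. In each of these 3 genes the FL-NPM1c libraries lay below all mCherry and all C-body null libraries, and in GM2A and ASAH1 they overlapped NTC DMSO. The fall from mCherry to FL-NPM1c was -0.59 ± 0.08 for GM2A, -0.49 ± 0.11 for LIPA and -0.52 ± 0.09 for ASAH1 (edgeR adjusted p = 0.00017, 0.0069 and 0.00096), and relative to C-body null the differences were -0.49 ± 0.08, -0.58 ± 0.11 and -0.43 ± 0.09 (0.00074, 0.0018 and 0.0039).

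PSAP and NPC2 rose and kept a high level with FL-NPM1c. PSAP, the precursor of the saposins that activate sphingolipid hydrolases, stood at 171, 174 and 194 CPM in NTC DMSO and 314, 341 and 279 CPM in dTAG mCherry. PSAP was at 311, 298 and 287 CPM in dTAG FL-NPM1c and 336, 347 and 359 CPM in dTAG C-body null. NPC2, which carries cholesterol out of the lysosomal lumen, stood at 25, 24.8 and 22.7 CPM in NTC DMSO and 35.5, 29.6 and 33.9 CPM in dTAG mCherry. NPC2 was at 36.5, 33.9 and 30.6 CPM in dTAG FL-NPM1c and 30.6, 29.7 and 32.6 CPM in dTAG C-body null. For both genes all 9 dTAG-13 libraries exceeded NTC DMSO; the mCherry rise was 0.79 ± 0.08 for PSAP (edgeR adjusted p = 2.1e-06) and 0.45 ± 0.09 for NPC2 (0.0022), and FL-NPM1c differed from mCherry by -0.06 ± 0.08 and 0.03 ± 0.09 (0.65 and 0.86). SMPD1, the acid sphingomyelinase, rose by 0.35 ± 0.12 (edgeR adjusted p = 0.05 after rounding) with overlapping groups, and PPT1, a palmitoyl-protein thioesterase, was called in none of the 6 comparisons.

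ACP2, a lysosomal acid phosphatase, was the 1 member that was lower in mCherry than in NTC DMSO. It stood at 20.7, 18.4 and 22 CPM in NTC DMSO, 16.4, 18.4 and 15.2 CPM in dTAG mCherry, 17.7 CPM in each dTAG FL-NPM1c library and 14.8, 16.1 and 15.2 CPM in dTAG C-body null. The mCherry difference was -0.29 ± 0.09 (edgeR adjusted p = 0.039) and that of C-body null -0.41 ± 0.10 (0.0042). The mCherry call was lost under library totals alone, with only the 2 groups in the fit, with the replicate block and without 8 of the 12 libraries in turn (adjusted p 0.052 to 0.15), so this call depends on the fit.

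Progranulin and its sorting receptor both rose in the mCherry cells, and SORT1 but not GRN was called in FL-NPM1c versus mCherry. The difference between these genes was not tested. GRN encodes progranulin, a secreted and lysosomal protein that is cut into granulins and is carried to lysosomes by sortilin, the product of SORT1. GRN (ENSG00000030582, chr17:44345086-44353102, plus strand, GRCh38), which had the largest rise of the 46 tested members, stood at 135, 122 and 160 CPM in NTC DMSO and 373, 414 and 255 CPM in dTAG mCherry. GRN was at 332, 314 and 289 CPM in dTAG FL-NPM1c and 336, 316 and 379 CPM in dTAG C-body null. SORT1 (ENSG00000134243, chr1:109309568-109397951, minus strand) stood at 11.9, 12.1 and 11.6 CPM in NTC DMSO and 14.6, 15.3 and 19.4 CPM in dTAG mCherry. SORT1 was at 11, 11.2 and 11.6 CPM in dTAG FL-NPM1c and 17.9, 17.2 and 16.6 CPM in dTAG C-body null. GRN was high in all 9 dTAG-13 libraries, and the SORT1 values with FL-NPM1c overlapped those of NTC DMSO. In mCherry versus NTC DMSO, GRN rose by 1.32 ± 0.14 (edgeR adjusted p = 3.9e-06) and SORT1 by 0.46 ± 0.10 (0.0036). Relative to mCherry, FL-NPM1c differed by -0.16 ± 0.14 for GRN (edgeR adjusted p = 0.47) and by -0.54 ± 0.10 for SORT1 (0.0026), and relative to C-body null by -0.14 ± 0.14 and -0.61 ± 0.10 (0.58 and 0.00085).

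Among the 5 proton pump subunits, ATP6V0A1 had the clearest differences. This membrane subunit (ENSG00000033627, chr17:42458844-42522611, plus strand, GRCh38) stood at 17.1, 18.9 and 19.7 CPM in NTC DMSO, 32.9, 35.1 and 33.7 CPM in dTAG mCherry, 24.4, 22.7 and 23.5 CPM in dTAG FL-NPM1c and 37.7, 35.4 and 35.6 CPM in dTAG C-body null. FL-NPM1c lay between NTC DMSO and the other 2 groups without overlap. ATP6V0A1 rose by 0.87 ± 0.08 in mCherry (edgeR adjusted p = 8.7e-07), and FL-NPM1c differed by -0.53 ± 0.08 from mCherry (0.00047) and by -0.62 ± 0.08 from C-body null (8.1e-05). ATP6V1A and ATP6V1B2 form part of the ATP-hydrolysing head of the pump. ATP6V1A stood at 60.3, 64 and 49.8 CPM in NTC DMSO, 67.6, 60.9 and 71.9 CPM in dTAG mCherry, 44.1, 46.5 and 53.6 CPM in dTAG FL-NPM1c and 65.5, 64.7 and 54.3 CPM in dTAG C-body null. ATP6V1B2 stood at 233, 231 and 205 CPM in NTC DMSO, 271, 236 and 292 CPM in dTAG mCherry, 222, 211 and 218 CPM in dTAG FL-NPM1c and 258, 249 and 242 CPM in dTAG C-body null. With FL-NPM1c both lay below every mCherry library, with differences of -0.47 ± 0.11 (edgeR adjusted p = 0.0095) and -0.30 ± 0.08 (0.024), and ATP6V1B2 was 0.25 ± 0.08 higher in mCherry than in NTC DMSO (0.034). The ATP6V1B2 call against mCherry was lost without any 1 of 5 libraries (adjusted p 0.055 to 0.12) and with only the 2 groups in the fit (0.062). Its call in mCherry versus NTC DMSO was lost without any 1 of 8 of the 12 libraries (adjusted p 0.05 to 0.13), with RLE factors (0.053), no low-count filter (0.072), only the 2 groups (0.14) and the replicate block (0.06), so it depends on the fit.

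**Figure D4:**
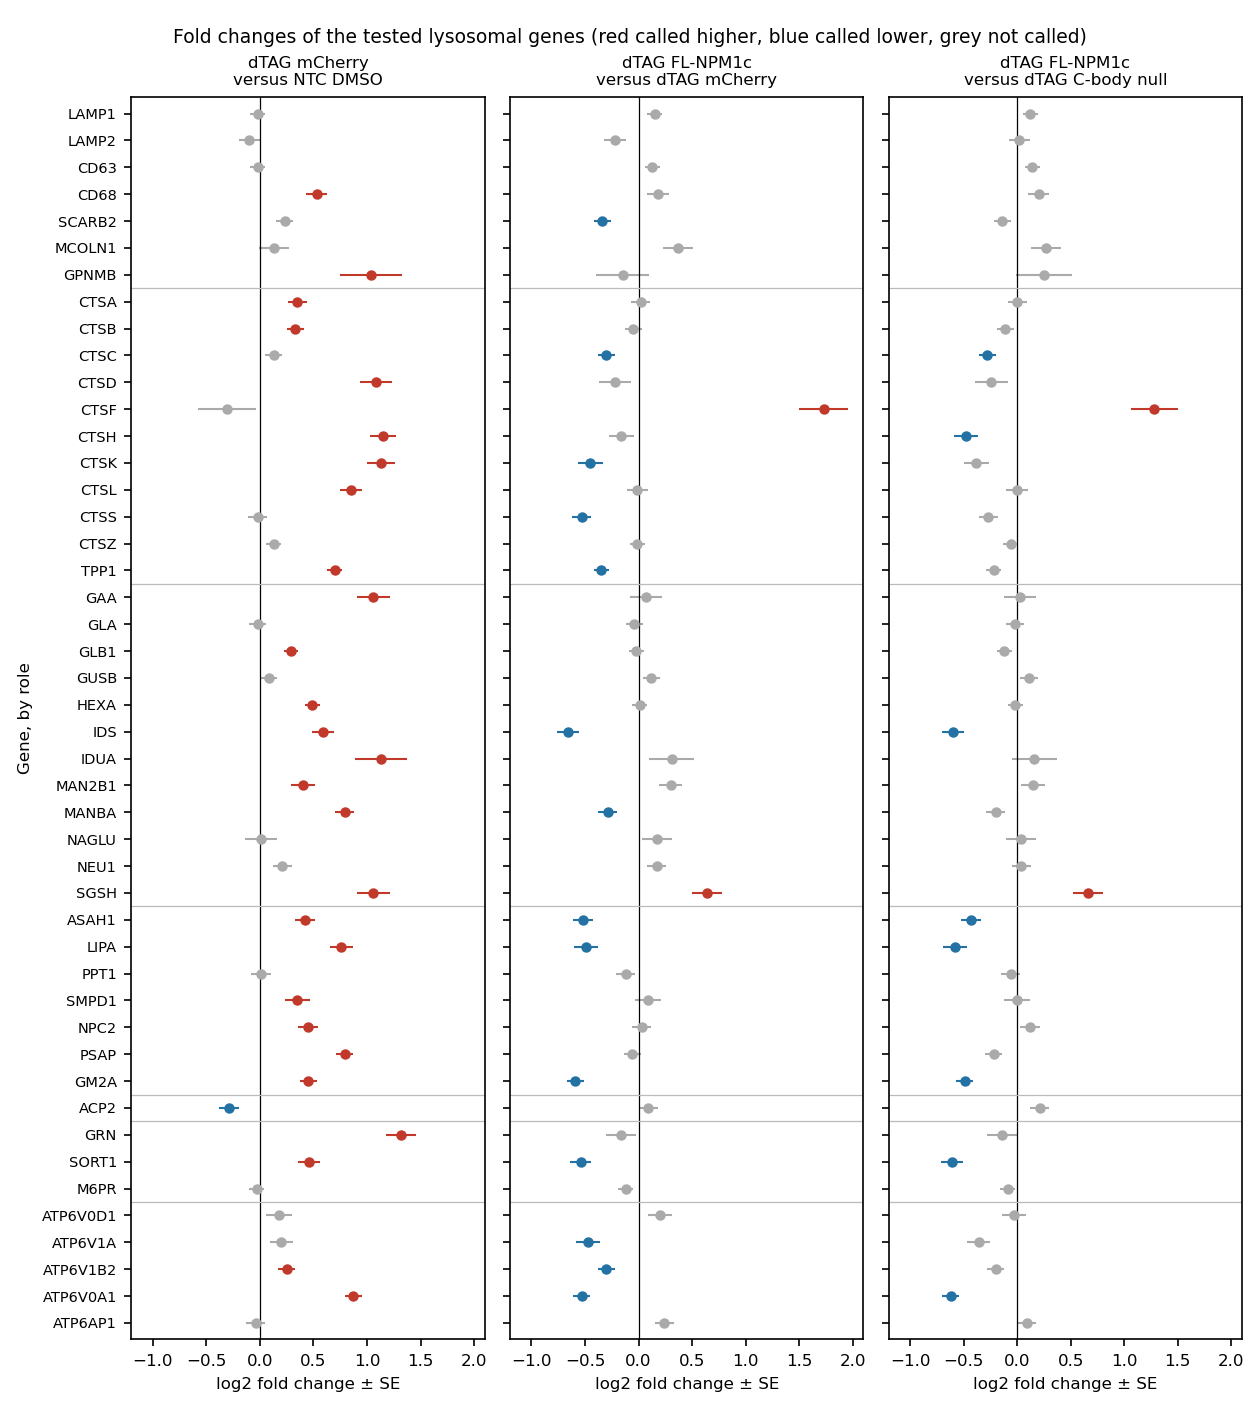
Log2 fold change ± SE of the 46 tested lysosomal genes, ordered by role with lines between classes, in 3 comparisons; red and blue points are called higher and lower at an edgeR adjusted p under 0.05, grey points are not called. In the left panel 27 genes are red and 1 is blue, in the middle panel 2 are red and 14 blue, and in the right panel 2 are red and 8 blue.

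Of the transcription factors that bind the E-box, TFE3 stood at 25.3, 26.9 and 31.8 CPM in NTC DMSO and 37.7, 43.6 and 35.5 CPM in dTAG mCherry, a rise of 0.48 ± 0.10 (edgeR adjusted p = 0.0021) without overlap, while TFEB (0.23 ± 0.17) and MITF (0.21 ± 0.22) were not called (0.36 and 0.56). TFEC, a family member expressed in macrophages, was low at 0.0992, 0.125 and 0.0528 CPM in NTC DMSO, 0.746, 1.07 and 1.14 CPM in dTAG mCherry, 0.436, 0.49 and 0.295 CPM in dTAG FL-NPM1c and 2.56, 2.83 and 1.86 CPM in dTAG C-body null. The 4 groups did not overlap, and relative to mCherry the TFEC difference was -1.30 ± 0.27 for FL-NPM1c (edgeR adjusted p = 0.0053) and 1.29 ± 0.23 for C-body null (0.0098). The part of these factors in the levels of the lysosomal members was not tested.

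The wider lysosomal system was followed in 104 further genes in 7 lists, of which 102 were tested. In mCherry versus NTC DMSO, 26 of them were higher and 4 lower, with a median of 0.09 (edgeR adjusted p under 0.05), beside 12.9% higher and 9.69% lower over all genes. Of the 7 lists, other proton pump subunits (14.3% higher), the regulators (16.7%) and the mannose 6-phosphate machinery (8.33%) were near or below that share. Other lysosomal hydrolases gave 10 higher and 2 lower of 20, led by FUCA1, the alpha-fucosidase, which rose from a mean of 17.9 to 144 CPM (3.01 ± 0.17, edgeR adjusted p = 2.3e-09), and on the lower side by the cysteine protease CTSV (-1.14 ± 0.15, 2.6e-05). Other membrane proteins and transporters gave 4 higher and 0 lower of 17, led by the metal ion transporter SLC11A1 (1.06 ± 0.30, edgeR adjusted p = 0.015), and other proton pump subunits 2 higher and 1 lower of 14, ATP6V0D2 (4.17 ± 0.37, 3.4e-07) and ATP6AP2 against ATP6V0A2 (-0.25 ± 0.08, 0.032). Mannose 6-phosphate tagging and sorting machinery gave 1 of 12, GNPTAB (0.33 ± 0.09, edgeR adjusted p = 0.018), and regulators and mTORC1 docking genes 3 of 18, TFEC, RRAGD and TFE3. Autophagy genes gave 4 higher and 1 lower of 17, led by GABARAPL1 (1.05 ± 0.10, edgeR adjusted p = 1e-06) and MAP1LC3A (-0.53 ± 0.18, 0.043), and cystatins, inhibitors of cysteine cathepsins, 2 of 4, led by CST3 (0.76 ± 0.12, 0.00017).

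With FL-NPM1c rather than mCherry, 19 of the 102 genes were lower and 12 higher, beside 7.95% and 7.58% of all genes. Other hydrolases accounted for 10 of the lower ones, led by DNASE2, the acid deoxyribonuclease (-0.91 ± 0.18, edgeR adjusted p = 0.0036), with CTSV the leading gene on the higher side (0.69 ± 0.15, 0.0058). MAP1LC3A, an autophagosome coat protein gene, had the reverse of its mCherry difference, at 1.04 ± 0.18 above mCherry (edgeR adjusted p = 0.0012) and 1.39 ± 0.18 above C-body null (8.8e-05). CSTA, which inhibits cysteine cathepsins, fell by 0.78 ± 0.13 (edgeR adjusted p = 0.00075), and the membrane sialomucin CD164 by 0.52 ± 0.13 (0.015). In C-body null versus mCherry 1 of the 102 was called, TFEC.

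Markers of several myeloid cell types were also higher in mCherry than in NTC DMSO, and the other comparisons differed by list. All 13 tested of the 15 monocyte and macrophage markers were higher in mCherry than in NTC DMSO, with a median of 2.84 on the log2 scale (edgeR adjusted p under 0.05), and their summed level was 298 to 350 CPM in NTC DMSO, 1430 to 1660 CPM in dTAG mCherry, 968 to 1140 CPM in dTAG FL-NPM1c and 1540 to 1610 CPM in dTAG C-body null. Of the 8 genes chosen for the labelled myeloid line, 6 were higher in mCherry than in NTC DMSO. The median of the 8 was 0.58 on the log2 scale, with a range of 0.08 to 3.01 and LYZ at the top. The sum of the 8 was 729 to 770 CPM in NTC DMSO, 3210 to 3550 CPM in dTAG mCherry, 3050 to 3180 CPM in dTAG FL-NPM1c and 4350 to 4510 CPM in dTAG C-body null. Of 6 osteoclast genes 3 were tested and all 3 were higher in mCherry than in NTC DMSO (ATP6V0D2, MMP9 and DCSTAMP, median 2.82). The sum of the 6 was 1.04 to 1.64 CPM in NTC DMSO, 9.39 to 10.5 CPM in dTAG mCherry, 7.02 to 14.0 CPM in dTAG FL-NPM1c and 9.87 to 15.1 CPM in dTAG C-body null. Of 6 neutrophil granule genes 4 were tested and 0 were called in mCherry versus NTC DMSO (edgeR adjusted p under 0.05), while 2, PRTN3 and ELANE, were higher with FL-NPM1c than with mCherry. In FL-NPM1c versus mCherry, 7 of the 13 monocyte and macrophage markers were lower and 0 higher, beside 7.95% and 7.58% of all genes. Of the 8 genes for the labelled line 2 were higher and 2 lower, and 0 of the 3 osteoclast genes were called. In C-body null versus mCherry, LYZ and PRTN3 were called higher. Epithelial and fibroblast genes summed to 0.425 to 0.719 CPM in NTC DMSO, 0.111 to 0.234 CPM in dTAG mCherry, 1.03 to 1.57 CPM in dTAG FL-NPM1c and 0.167 to 0.385 CPM in dTAG C-body null. Only 1 of these 6 genes, COL1A2, had enough counts to be tested, so the sums do not show the class moving together. The part of these markers in the lysosomal differences was not tested, and in bulk RNA a change in the number of cells of a type cannot be told apart from a change in RNA per cell. The 8 genes of the labelled line were all detected, with MPO at 1.51, 1.25 and 1.35 CPM in NTC DMSO, and CD3D, CD3E, CD3G, CD2, EPCAM, KRT19, CDH1 and HBB had 0 counts in every library. A count of 0 allows up to 3 counts in a library, of 30519165 in the shallowest.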

How the data were processed

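RNA was made into 12 libraries, 3 in each of 4 groups, by a stranded mRNA protocol, per the labels. The deposited values were raw counts of reads per gene. Tools listed in the submitters' processing notes are STAR, featureCounts and DESeq2, and the build is hg38. Versions, annotation release, strand setting and treatment of multi-mapping reads were not given in the sources used here, and these choices affect genes with near copies or overlapping neighbours. The numbered columns were matched to samples through the library numbers in the labels, which is an inference. Of 78936 lines, 6 were broken and were dropped. A gene name table gave 61479 symbols and GENCODE 29 another 54.

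Genes were tested with edgeR 4.0.16 in R 4.3.3, with TMM factors of 0.975 to 1.02 and filterByExpr by group, which removed 0.0795% of counts. A robust quasi-likelihood fit took all 12 libraries with 1 mean per group, and p-values were adjusted by Benjamini-Hochberg over 24064 genes in each of 6 contrasts. The SE is the size of the log2 fold change over the root of F. CPM were computed with TMM-scaled library sizes. The procedure was tested on simulated data. Precision for low genes is limited by depth and by the spread of 3 libraries.

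Within each role class the members named with their values were those called, up to 3 higher and 3 lower with the largest change in each of 4 comparisons, or the one with the highest CPM where none was called. Other lists give the called gene with the largest change per direction, and TFEB, TFE3, MITF, TFEC and NPM1 are always given. A few members, such as those not called, are also mentioned and were chosen after their values were seen. The members, lists and motifs were chosen with earlier results of these data known. Promoter stretches are RefSeq (GRCh38.p14), shortened so that at most 30 bases lie in an annotated UTR. Replicate libraries differed by more than counting noise. Also run were library totals, RLE factors, DESeq2 1.42.0, other filters, only the 2 groups compared, adjusted p under 0.01, a replicate block and each library left out. A marker gene is not reported here.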

Additional observations from a re-analysis of the deposited data

How the results depend on the processing

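No named member's call changed direction under any alternative run. Some counts of members moved by more than 1.5 times. With no filter on low counts, 4 members were higher with FL-NPM1c than with mCherry, beside 5.21% of all genes. With only the 2 groups in the fit, 15 were lower with FL-NPM1c than with C-body null. The share of all genes called lower there also rose, to 9% from 4.86% in the main fit. At an adjusted p under 0.01, 9 were called lower for FL-NPM1c versus mCherry, and 1 for each construct versus NTC DMSO. The shares of all genes were 3.13% for the first, and 6.64% for FL-NPM1c and 7.16% for C-body null versus NTC DMSO. ACP2, the 1 member lower in mCherry than in NTC DMSO, was not called with library totals, only the 2 groups, an adjusted p under 0.01 or the replicate block, so the count was 0.

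Leaving out single libraries gave the following ranges. Higher in mCherry than in NTC DMSO were 22 to 28 members, and lower 0 to 1. For FL-NPM1c versus mCherry, 2 to 8 were higher (8 without dTAG mCherry replicate 2, where 14.8% of all genes were higher, and 4 without NTC DMSO replicate 3, where 9.01% were) and 9 to 16 lower (9 without dTAG FL-NPM1c replicate 2 or dTAG mCherry replicate 3). For C-body null versus mCherry, 0 to 1 were lower (1 without dTAG mCherry replicate 2). For FL-NPM1c versus C-body null, 6 to 14 were lower (14 without dTAG mCherry replicate 2, with 6.33% of all genes). Against NTC DMSO, 17 to 27 were higher and 1 to 4 lower with FL-NPM1c (4 without NTC DMSO replicate 3, 1 without NTC DMSO replicate 1 or 2 or dTAG FL-NPM1c replicate 1 or 2). With C-body null, 24 to 28 were higher and 1 to 3 lower (1 without NTC DMSO replicate 1 or 2 or dTAG C-body null replicate 3). Medians were 0.278 to 0.397 for mCherry versus NTC DMSO, -0.129 to -0.01 for FL-NPM1c versus mCherry, -0.027 to 0.038 for C-body null versus mCherry, -0.105 to -0.043 for FL-NPM1c versus C-body null, 0.275 to 0.334 for FL-NPM1c versus NTC DMSO and 0.359 to 0.436 for C-body null versus NTC DMSO.

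An alternative chosen after seeing the data left out dTAG mCherry replicate 2 and NTC DMSO replicate 3 together. It gave 8 members higher with FL-NPM1c than with mCherry, 15 lower with FL-NPM1c than with C-body null, 8 lower with FL-NPM1c than in NTC DMSO, and 3 higher and 6 lower with C-body null than with mCherry. The shares of all genes in that fit were 15.4%, 9.48%, 19.9%, 7.48% and 8.68%, in the same order, so the 8 of 46 higher with FL-NPM1c than with mCherry, the 8 lower than in NTC DMSO and the 3 higher with C-body null are near them or below. The C-body null median against NTC DMSO was 0.444. The cause of these differences was not tested. Over all genes in C-body null versus mCherry, 52 were higher and 91 lower, against 199 and 163 with DESeq2, 174 and 194 with no filter, 30 and 33 with only the 2 groups, 32 and 54 with the replicate block, 761 and 638 without dTAG mCherry replicate 2, and 1832 and 2125 without both libraries. With only the 2 groups, FL-NPM1c versus C-body null had 2312 genes higher and 2098 lower, against 1160 and 1169, and 2235 and 1167 in mCherry versus NTC DMSO, against 3096 and 2333.

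Replicate numbers did not pair the libraries: same-numbered libraries had residual correlations of -0.31 to 0.16. The fit with the replicate block gave 0 members lower in mCherry than in NTC DMSO and lost 4 calls and gained 0 among 156 values of named members. LGMN and ACP5 had too few counts to be tested at this depth, and GPNMB, under 1 CPM in every library, had the largest SE in mCherry versus NTC DMSO (0.29).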
